A study of Mus musculus with 8 samples.

Results

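The p53 response in brown fat was followed through 38 genes: p53 itself and its inhibitors, cyclin-dependent kinase inhibitors, targets that p53 switches on, genes of DNA damage signalling and repair, and genes whose level is tied to cellular senescence. The members were taken from a list of gene symbols by Ensembl gene ID, and all 38 have a row among the 41388 genes of each library. RNA was sequenced from the brown adipose tissue of 8 C57BL/6J mice fed regular chow at room temperature, 4 per group. ANKO mice joined floxed Nampt to a Cre recombinase transgene that the promoter of adiponectin, an adipocyte hormone, drives. The WT mice were labelled wild type and flox/flox, so they carried the floxed alleles without a Cre named in the labels. Nampt makes nicotinamide mononucleotide in the salvage pathway of NAD+, and the other cells of the depot, such as endothelial cells and macrophages, are not targeted by an adipocyte Cre. The sources used here give no age or sex.

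p53 is a transcription factor that is made steadily and destroyed steadily, because its own target Mdm2 marks it for degradation. When the kinases ATM and ATR sense broken or stalled DNA, they and their partners CHK2 and CHK1 modify p53, which is then no longer removed. p53 thus acts mainly through protein level and modification, which RNA does not report, and its activity is usually read from its targets. Those targets stop the cell cycle (p21, encoded by Cdkn1a), start cell death (PUMA and NOXA, encoded by Bbc3 and Pmaip1), repair DNA or restrain p53. Senescent cells are arrested for good, often raise the CDK inhibitors of the Cdkn2a and Cdkn2b locus, usually lose the nuclear lamina protein lamin B1 and secrete cytokines, proteases and growth factor binding proteins.

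The libraries held 21771276 to 49697156 gene counts in WT and 5738067 to 26426476 in ANKO, and low transcripts were measured least precisely in ANKO2, ANKO3 and ANKO4. A level of 3 counts was 0.0683 CPM (counts per 1e+06 counts of the scaled library size) in the deepest WT library and 0.437 CPM in the shallowest ANKO library. Nampt, the targeted gene, was at 484, 484, 571 and 495 CPM in WT1 to WT4 and at 67.4, 69.5, 77.7 and 74.6 CPM in ANKO1 to ANKO4. It fell 7.04-fold (log2 fold change -2.81, SE 0.12, edgeR adjusted p = 1.51e-07), and the groups did not overlap. The tissue carried its defining transcripts in both groups, with Ucp1 at 3369 to 8829 CPM in WT and 317 to 1673 CPM in ANKO. Brown adipocyte markers (8 of 9 lower, none higher) summed to 7241 to 14670 CPM in WT and 1141 to 3730 CPM in ANKO, and general adipocyte markers (8 of 10 lower, none higher) to 19120 to 24850 and 8776 to 12610 CPM. Macrophage, lymphocyte, fibroblast and muscle markers had higher sums in ANKO than in WT, and endothelial markers lower sums. Macrophage markers (18 of 18 higher) summed to 195 to 258 CPM in WT and 1858 to 2683 CPM in ANKO, and lymphocyte markers (10 of 12 higher) to 7.26 to 11.2 and 37.7 to 55.7 CPM. Fibroblast markers (8 of 8 higher) summed to 977 to 1387 CPM in WT and 4302 to 7898 CPM in ANKO, and endothelial markers (1 of 8 higher, 3 lower) to 1020 to 1205 and 818 to 995 CPM. Skeletal muscle markers (11 of 15 higher) ran from 36.8 to 3116 CPM in WT and from 11280 to 16530 CPM in ANKO, and WT3 and WT4 were the lowest, at 129 and 36.8 CPM. Markers of dividing cells (21 of 25 higher) summed to 120.3 to 153.5 CPM in WT and 227 to 309 CPM in ANKO. No marker of these lists was at 0 in all 8 libraries, and of all genes tested 30.6% were higher and 27.6% lower. In whole tissue a change in the number of cells of a type and a change in RNA per cell cannot be told apart.

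p53 binds DNA through copies of a 10-base element, the p53 decamer, and the sequences upstream of 4 members are shown because they hold that element next to genes with different results. Cdkn1a was lower in ANKO, Trp53 was higher, and Mdm2 and Ccng1 did not pass the test. The stretches are from RefSeq promoter windows on GRCm38.p6, end before the first base of the gene, are printed 5′ to 3′ on the strand of the gene, and carry the element in capitals.
Cdkn1a, chr17:29090729-29090978, plus strand: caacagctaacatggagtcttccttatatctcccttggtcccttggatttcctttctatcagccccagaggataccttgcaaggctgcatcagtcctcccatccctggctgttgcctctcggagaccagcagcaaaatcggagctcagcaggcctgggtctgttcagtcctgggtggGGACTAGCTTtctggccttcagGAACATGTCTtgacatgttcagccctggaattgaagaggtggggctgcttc
Mdm2, chr10:117710759-117711008, minus strand: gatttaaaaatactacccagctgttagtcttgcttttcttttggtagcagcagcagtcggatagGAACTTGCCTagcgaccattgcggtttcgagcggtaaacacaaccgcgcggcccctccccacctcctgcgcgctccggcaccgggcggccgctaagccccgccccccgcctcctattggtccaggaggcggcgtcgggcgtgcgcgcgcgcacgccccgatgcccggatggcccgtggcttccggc
Ccng1, chr11:40755312-40755536, minus strand: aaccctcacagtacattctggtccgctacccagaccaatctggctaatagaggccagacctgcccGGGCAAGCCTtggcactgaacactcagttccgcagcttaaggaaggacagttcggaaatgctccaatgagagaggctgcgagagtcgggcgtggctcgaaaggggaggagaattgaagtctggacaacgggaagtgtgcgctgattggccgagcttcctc
Trp53, chr11:69580109-69580358, plus strand: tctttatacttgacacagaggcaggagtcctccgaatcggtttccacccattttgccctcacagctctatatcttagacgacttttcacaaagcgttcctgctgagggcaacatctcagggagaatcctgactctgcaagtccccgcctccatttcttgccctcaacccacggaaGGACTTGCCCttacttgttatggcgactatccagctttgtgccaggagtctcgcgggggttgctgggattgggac
The Cdkn1a stretch holds GGACTAGCTT at -73 to -64 and GAACATGTCT at -51 to -42, counted from the RefSeq start, with 12 bases between them. The 10 bases right after GAACATGTCT, tgacatgttc, miss the searched consensus only at their first base and were not marked. Which of these elements p53 uses was not tested. The element was GAACTTGCCT at -186 to -177 upstream of Mdm2, GGGCAAGCCT at -185 to -176 upstream of Ccng1 and GGACTTGCCC at -75 to -66 upstream of Trp53. RefSeq windows of 300 bases, 250 before and 50 after a start, were found for 27 of the 38 members, 36 windows in all. The decamer was searched by its consensus, which reads the same on both strands, and was in 10 of the 36 windows (27.8%) against 2745 of 32851 windows of all genes (8.36%). A pair of decamers with at most 13 bases between them was in 1 member window, that of Cdkn1a, and in 24 of all windows (0.0731%). The other Cdkn1a window, chr17:29093519-29093818 at a second RefSeq start inside the gene, held no decamer. The same Aen decamer was counted in 2 windows that overlap. The 9 members with a decamer were Cdkn1a, Mdm2, Ccng1, Trp53, Gadd45a, Aen, Ei24, Sesn1 and Polk. Of these, Trp53, Gadd45a and Sesn1 were higher in ANKO, Cdkn1a and Ei24 were lower, and Mdm2, Ccng1, Aen and Polk did not pass the test. Of all genes tested 30.6% were higher and 27.6% lower. Sesn1 and Polk each had another window without a decamer, and their decamers lay before RefSeq starts inside the gene. A match describes the letters of a short window and shows no binding, and known p53 sites of several targets lie outside such windows.

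Of the 38 members 37 had enough counts to be tested, and 20 rose, 5 fell and 12 did not pass (edgeR, adjusted p under 0.05 over 16705 genes). Over all genes tested 30.6% were called higher and 27.6% lower, so the shares of members were above the background for rises and below it for falls. The median log2 fold change was 0.43 over the members and -0.01 over all genes. In 23 of the 37 tested members the libraries of the groups did not overlap, beside 55.0% of all genes tested. Cdkn2a, which was not tested, did not overlap either. The 20 members that rose had a median WT level of 5.28 CPM and the 5 that fell one of 118 CPM. The same order held over all genes, where called rises had a median WT level of 2.65 CPM and called falls one of 49.2 CPM. With library totals in place of scaled library sizes, 5897 genes were higher and 2940 lower, against 5111 and 4615. That scaling moved the median of all genes by 0.18 on the log2 scale and gave 23 members higher and 4 lower.

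**Figure D1:**
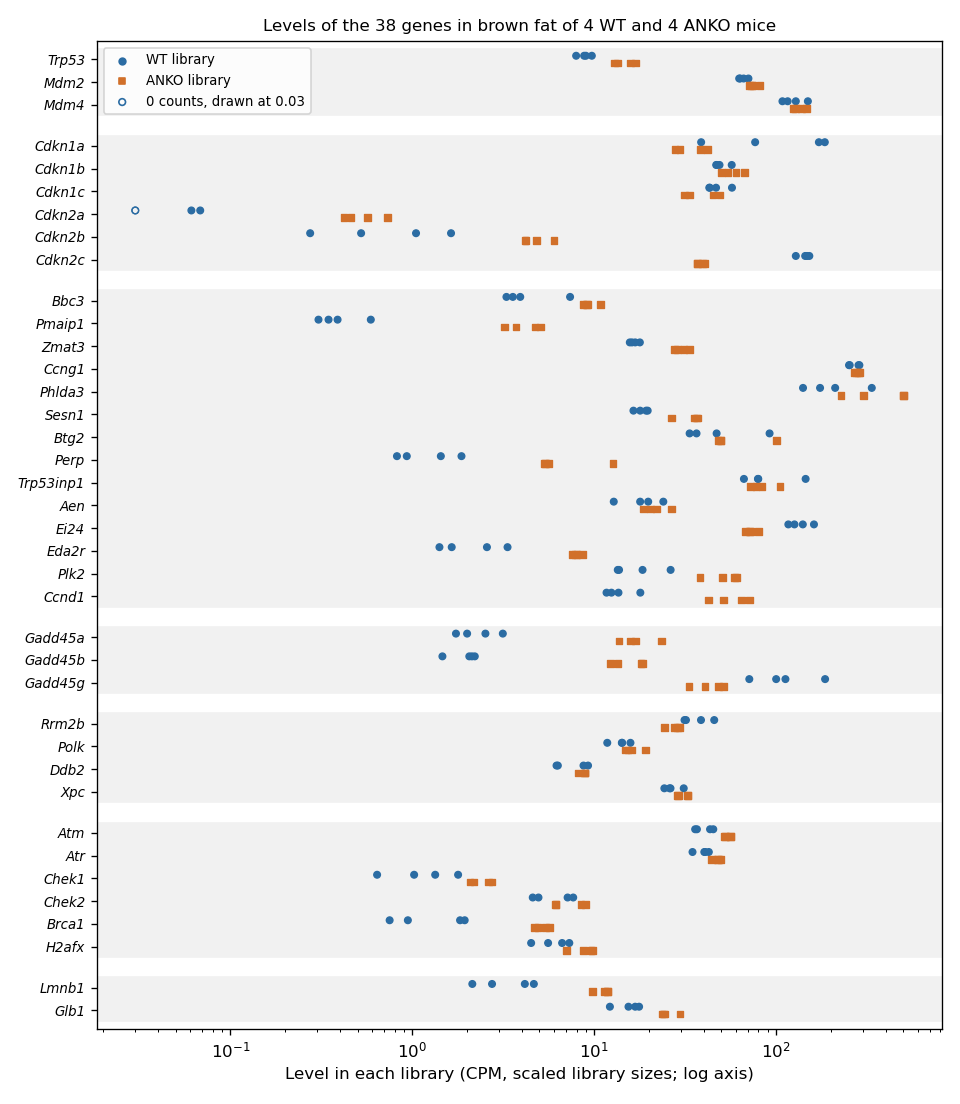
Level of each of the 38 genes in each library, in CPM on a log axis, with WT libraries as circles and ANKO libraries as squares, grouped by role. A library with 0 counts is drawn as an open circle at 0.03 CPM. The groups did not overlap in 23 of the 37 members tested, beside 55.0% of all genes tested. Cdkn1a, Btg2 and Phlda3 spread widely among WT libraries.

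**Figure D2:**
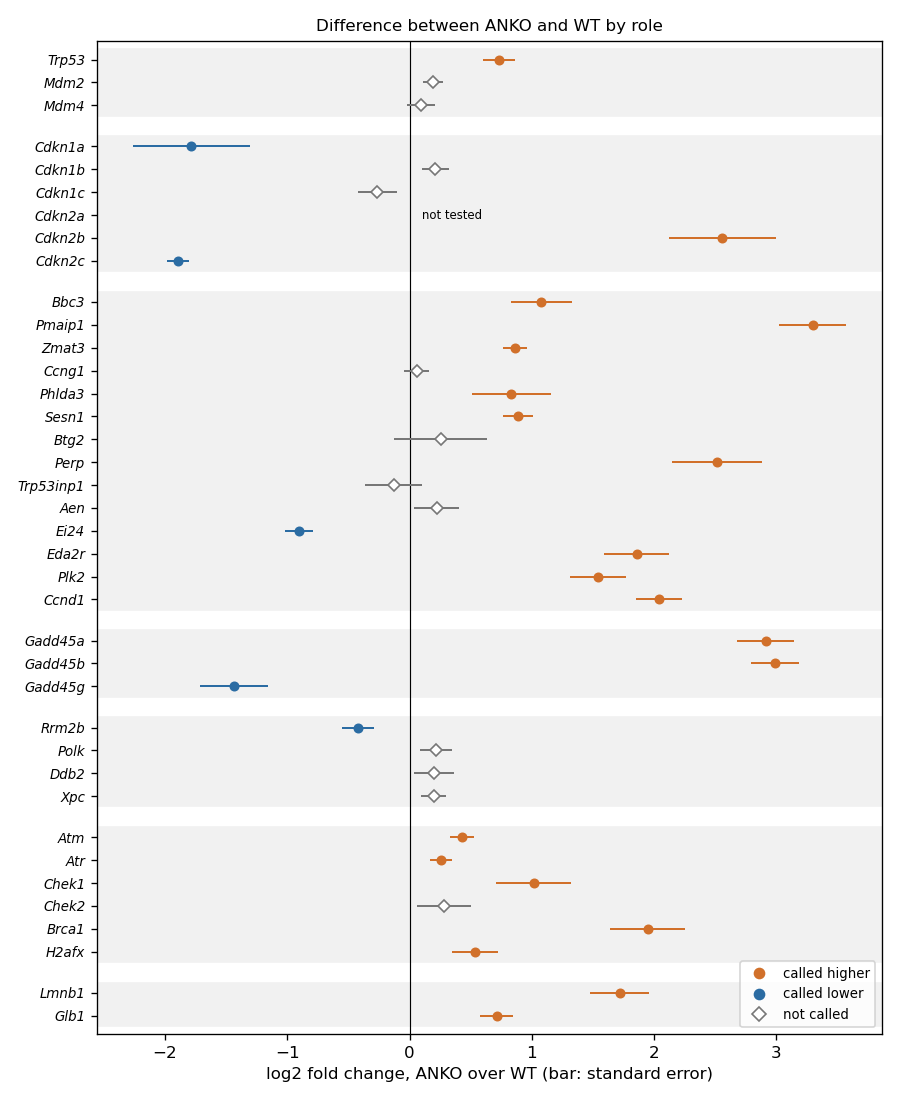
log2 fold change of each member, ANKO over WT, with its standard error as a bar and the genes grouped by role. Filled points passed the test (20 higher, 5 lower), open diamonds did not, and Cdkn2a was not tested.

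Among the genes that make and control p53, Trp53 rose and its inhibitors did not pass the test. Trp53 (chromosome 11, 69580359 to 69591873, plus strand, GRCm38) encodes p53. It was at 8.81, 9.71, 7.96 and 9.01 CPM in the WT libraries and at 13.5, 12.9, 15.9 and 16.9 CPM in the ANKO libraries, in the order of their numbers. Every ANKO library was above every WT library, and the mean went from 8.88 ± 0.72 to 14.8 ± 1.91 CPM (SD, n = 4 each). The difference was 1.66-fold (log2 fold change 0.73, SE 0.13, edgeR adjusted p = 0.000817). Mdm2, the ubiquitin ligase that removes p53 and is itself a p53 target, was at 63.5, 62.7, 66.4 and 70.5 CPM in WT and at 71.6, 73.3, 74.7 and 81.7 CPM in ANKO. The groups of Mdm2 did not overlap, but the difference of 0.19 (SE 0.08) did not pass (edgeR adjusted p = 0.0616), whereas it passed with library totals (0.39, adjusted p = 0.0124). Mdm4, a relative that blocks p53 without destroying it, was at 108.5 to 150 CPM in WT and 124 to 147 CPM in ANKO, and its groups overlapped (0.09, SE 0.12).

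The 6 CDK inhibitors split, with Cdkn1a and Cdkn2c lower, Cdkn2b higher, and Cdkn1b and Cdkn1c not past the test. Cdkn1a (chromosome 17, 29090979 to 29100722, plus strand) encodes p21, the arrest protein most often read as a sign of p53 activity. It was at 38.8, 76.8, 185.5 and 172 CPM in the WT libraries and at 27.9, 29.6, 42.0 and 38.5 CPM in the ANKO libraries. ANKO levels lay close together, while WT levels ran over a wide range, and WT1 lay among the ANKO libraries. The mean went from 118 ± 71.8 to 34.5 ± 6.83 CPM, a 3.45-fold fall (log2 fold change -1.78, SE 0.48, edgeR adjusted p = 0.0136). Its call held with each library left out in turn (-2.10 to -1.49). WT3 and WT4, with the highest Cdkn1a, also had the lowest muscle markers (129 and 36.8 CPM, against 1097 and 3116 in WT1 and WT2) and the highest Ucp1 (8829 and 7430 CPM, against 3369 and 4170). Without these libraries the log2 fold change of Cdkn1a was -0.77 (SE 0.26, edgeR adjusted p = 0.0396). When the muscle marker level entered the fit it was -0.17 (SE 0.55, edgeR adjusted p = 0.857). The muscle marker level of that fit was 0.79 to 6.70 in WT and 8.69 to 9.19 in ANKO (mean log2 CPM). It followed the genotype, so the fit cannot separate muscle RNA from the knockout. The part of muscle RNA in this difference was not tested.

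Cdkn2c (chromosome 4, 109660876 to 109667189, minus strand) encodes p18, an inhibitor of CDK4 and CDK6. It was at 128.5, 145, 152.5 and 148 CPM in WT and at 40.7, 36.9, 39.4 and 37.2 CPM in ANKO. Both groups were tight and far apart, a 3.72-fold fall (log2 fold change -1.89, SE 0.09, edgeR adjusted p = 2.36e-07). Its fold change was -1.84 without WT3 and WT4 and -1.78 with the muscle covariate, and it passed both times. Cdkn2b (chromosome 4, 89306289 to 89311032, minus strand) encodes p15, which acts on the same kinases. It was at 1.63, 1.05, 0.275 and 0.523 CPM in WT and at 6.01, 4.84, 4.16 and 4.23 CPM in ANKO, from 9 to 33 counts per WT library and 29 to 157 per ANKO library. Its groups did not overlap, and it rose 5.89-fold (log2 fold change 2.56, SE 0.44, edgeR adjusted p = 0.000676). The value was 1.86 without WT3 and WT4, and with the muscle covariate it was 1.22 and not called (SE 0.64, edgeR adjusted p = 0.199). Cdkn2a, its neighbour, encodes both p16 and p19ARF, which 1 gene count cannot separate. It was read 0, 0, 2 and 3 times in the WT libraries and 11, 4, 6 and 5 times in the ANKO libraries. The ANKO levels of 0.421 to 0.729 CPM were all above the WT levels of 0 to 0.0683 CPM, although 3 counts were as much as 0.437 CPM in ANKO4, and the gene was left out of the test for its low counts. DESeq2, run without that filter, gave Cdkn2a a log2 fold change of 3.73 (SE 0.91, adjusted p = 0.000152). Cdkn1b, which encodes p27, was at 46.9 to 57.1 CPM in WT and 50.03 to 66.9 CPM in ANKO, and Cdkn1c, which encodes p57, at 42.97 to 57.3 and 31.3 to 49.3 CPM, with overlapping groups. Neither passed, at log2 fold changes of 0.21 (SE 0.11) and -0.26 (SE 0.16), and Cdkn1b passed with library totals (0.40, edgeR adjusted p = 0.0359). Per kilobase of gene model, the mean levels in WT were 53.4 RPKM (CPM per kb) for Cdkn2c, 53.2 for Cdkn1a, 24.6 for Cdkn1c, 11.0 for Cdkn1b and 0.625 for Cdkn2b. In ANKO they were 20.6 RPKM for Cdkn1c, 15.5 for Cdkn1a, 14.4 for Cdkn2c, 12.7 for Cdkn1b and 3.45 for Cdkn2b, so the inhibitors lay closer together.

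**Figure D3:**
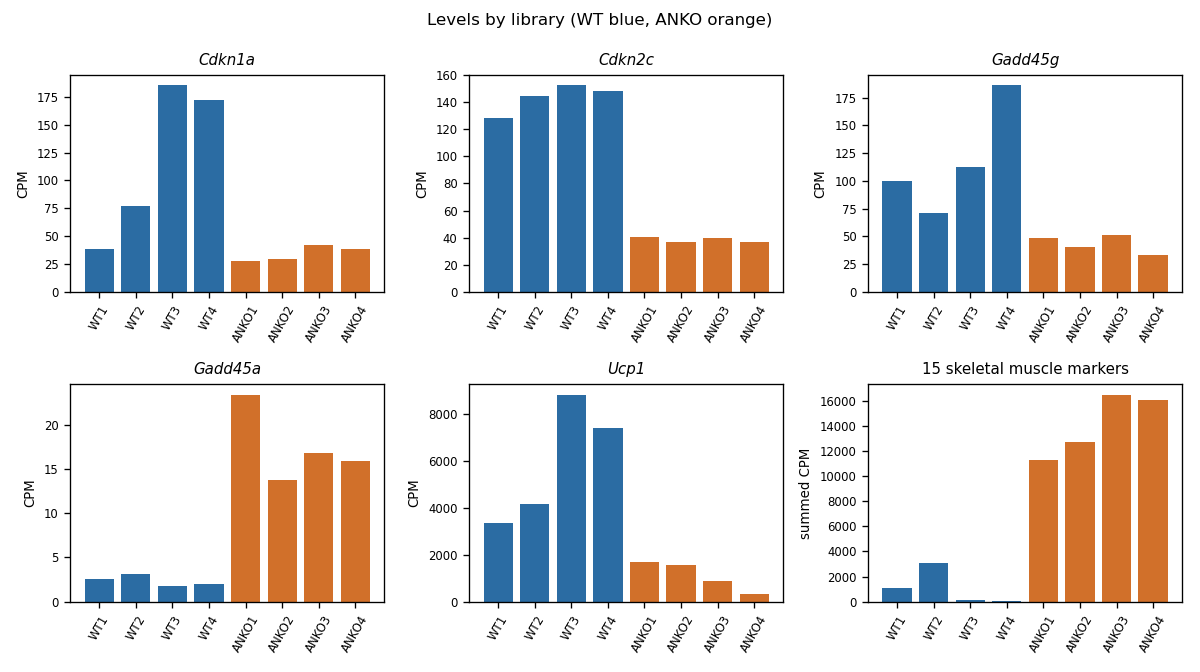
Level in each library, in CPM, of Cdkn1a, Cdkn2c, Gadd45g, Gadd45a and Ucp1, and the summed level of 15 skeletal muscle markers, with WT bars in blue and ANKO bars in orange. Cdkn1a and Ucp1 were highest in WT3 and WT4, where the muscle markers were lowest, while Cdkn2c was similar in the WT libraries (128.5 to 152.5 CPM).

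Of the 14 genes listed as p53 targets in cell death, arrest or stress defence, 9 rose, 1 fell and 4 did not pass. Their median log2 fold change was 0.87, and over all genes tested 30.6% were higher and 27.6% lower. Pmaip1, Bbc3, Perp and Eda2r, which act in cell death, rose, while Aen and Trp53inp1, which p53 also uses there, did not pass. Pmaip1 (chromosome 18, 66458604 to 66465550, plus strand) encodes NOXA, a BH3-only protein that blocks survival proteins of the BCL2 family. It was at 0.347, 0.389, 0.305 and 0.592 CPM in WT and at 3.71, 5.07, 4.73 and 3.21 CPM in ANKO, from 7 to 26 counts per WT library and 22 to 97 per ANKO library. The groups were far apart, and the rise of 9.84-fold was larger than that of any other member tested (log2 fold change 3.30, SE 0.27, edgeR adjusted p = 6.3e-06). With counts thinned at random to the depth of the shallowest library, its log2 fold change was 4.48 (SE 0.48). Thinning lowers the few WT counts further, so this value is less precise. Bbc3 (chromosome 7, 16309616 to 16318205, plus strand) encodes PUMA, another BH3-only protein. It was at 7.38, 3.92, 3.30 and 3.57 CPM in WT and at 10.8, 9.11, 8.70 and 9.18 CPM in ANKO. WT1 stood above the other WT libraries and below every ANKO library, and the rise was 2.11-fold (log2 fold change 1.08, SE 0.25, edgeR adjusted p = 0.00426). Perp, a desmosomal membrane protein that p53 uses in apoptosis, was at 1.44, 1.87, 0.824 and 0.933 CPM in WT and at 5.32, 5.65, 5.39 and 12.7 CPM in ANKO. It rose 5.70-fold (edgeR adjusted p = 0.000256), and ANKO4 was well above the other ANKO libraries. Eda2r, a receptor of the TNF receptor family for the ectodysplasin isoform A2, was at 1.41 to 3.34 CPM in WT and 7.57 to 8.60 CPM in ANKO and rose 3.62-fold (edgeR adjusted p = 0.000199).

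Zmat3, an RNA-binding protein of the p53 programme, rose with little spread, from 16.6 ± 0.93 to 30.3 ± 2.67 CPM (1.82-fold, edgeR adjusted p = 4.63e-05). Sesn1, a sestrin that restrains mTORC1 under stress, was at 19.7, 17.9, 19.3 and 16.5 CPM in WT and at 37.1, 26.6, 36.4 and 35.4 CPM in ANKO (1.85-fold, edgeR adjusted p = 0.000164). Plk2, a polo-like kinase induced in stressed cells, was at 26.3, 13.7, 13.5 and 18.5 CPM in WT and at 50.9, 38.2, 60.4 and 59.3 CPM in ANKO. It rose 2.91-fold (edgeR adjusted p = 0.000346). Ccnd1 (cyclin D1), which drives entry into the cell cycle and is also raised by many growth signals, was at 13.6, 17.95, 12.5 and 11.7 CPM in WT and at 42.5, 51.6, 64.4 and 71.4 CPM in ANKO. No ANKO library came near the WT range, and the rise was 4.12-fold (edgeR adjusted p = 1.21e-05). Ccnd1 was counted among the targets that rose, although it drives entry into the cell cycle rather than arrest. Phlda3, a repressor of AKT signalling, had the highest level of the 14 per kilobase, at 138 RPKM in WT and 246 RPKM in ANKO. It was at 336, 211.5, 175 and 141 CPM in WT and at 503, 503, 302 and 227 CPM in ANKO, so the groups overlapped. Its rise of 1.78-fold was just past the threshold (log2 fold change 0.83, SE 0.32, edgeR adjusted p = 0.0497). The call of Phlda3 was lost without WT2, WT3, WT4, ANKO1 or ANKO2, at log2 fold changes of 0.82, 0.73, 0.66, 0.67 and 0.67 and edgeR adjusted p-values from 0.0872 to 0.131. It was also lost with limma-voom, with thinned counts and without the filter on low counts.

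Ei24, an endoplasmic reticulum protein that takes part in autophagy, was the 1 target of this group that fell. It was at 117, 126, 162 and 140.4 CPM in WT and at 71.6, 80.1, 72.3 and 67.9 CPM in ANKO, without overlap (1.87-fold lower, log2 fold change -0.90, SE 0.11, edgeR adjusted p = 9.57e-05). The other 4 did not pass. Ccng1, an atypical cyclin and one of the targets most often read in mouse tissue, was at 252 to 287 CPM in WT and 271 to 289.8 CPM in ANKO (0.06, SE 0.10). Btg2, an antiproliferative gene of the immediate early kind, was at 92.2, 36.6, 33.5 and 47.2 CPM in WT and at 100.5, 49.8, 48.05 and 49.7 CPM in ANKO. WT1 and ANKO1 stood above the other libraries of their groups, and without ANKO1 the log2 fold change of Btg2 went from 0.26 (SE 0.38) to -0.087. Trp53inp1, which links p53 to autophagy and cell death, was at 145.5 CPM in WT3, 66.6 to 79.9 CPM in the other WT libraries and 72.6 to 105 CPM in ANKO. Its log2 fold change of -0.13 (SE 0.23) turned to 0.16 without WT3 and to 0.06 with library totals. Aen, an exonuclease that p53 uses in apoptosis, was at 12.8 to 24.01 CPM in WT and 18.6 to 26.6 CPM in ANKO (0.22, SE 0.19). Bbc3, Perp, Plk2 and Phlda3 lost their calls with the muscle covariate, at log2 fold changes of 0.54, 1.52, 1.41 and 0.16. Macrophage markers moved with the group (194.8 to 258 CPM summed in WT, 1858 to 2683 CPM in ANKO), as did fibroblast markers, and their part in these rises was not tested.

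The 3 GADD45 genes split by direction. They encode small acidic proteins that bind stress kinases, cyclin B1 with CDK1, and PCNA, and Gadd45a is the member most directly under p53. Gadd45a (chromosome 6, 67035096 to 67037457, minus strand) was at 2.53, 3.15, 1.74 and 2.003 CPM in WT and at 23.4, 13.7, 16.8 and 15.9 CPM in ANKO. Gadd45b (chromosome 10, 80930091 to 80932204, plus strand), which also answers to NF-κB and TGF-β signals, was at 2.13, 2.06, 1.47 and 2.21 CPM in WT and at 18.1, 12.3, 13.5 and 18.5 CPM in ANKO. Gadd45g (chromosome 13, 51846678 to 51848468, plus strand), which is raised in brown fat by cold, was at 100.2, 71.3, 113 and 186 CPM in WT and at 48.2, 40.7, 51.4 and 33.2 CPM in ANKO. In none of the 3 did the groups overlap, which also held for 55.0% of all genes tested. Gadd45a rose 7.53-fold (log2 fold change 2.91, SE 0.23, edgeR adjusted p = 4.74e-06) and Gadd45b 7.95-fold (2.99, SE 0.20, adjusted p = 1.6e-06). Gadd45g fell 2.70-fold (-1.44, SE 0.28, edgeR adjusted p = 0.00177). Per kilobase, Gadd45g was at 100.3 RPKM in WT against 1.33 for Gadd45a and 1.55 for Gadd45b, and at 36.97 RPKM in ANKO against 9.90 and 12.3. The order of the 3 genes was thus the same in both groups, with Gadd45g on top and the distance smaller in ANKO. Gadd45a and Gadd45b passed with the muscle covariate (2.33 and 2.92), while Gadd45g did not (-0.32, SE 0.27, edgeR adjusted p = 0.431). Brown adipocyte markers, lower in ANKO, moved in the same direction as Gadd45g, and their part in its fall was not tested. A non-coding gene on the opposite strand, E230016M11Rik, overlaps Gadd45a and was higher too (1.03 CPM in WT, 2.61 CPM in ANKO), and reads of the overlap cannot be told apart because the strand setting of the counting is not stated.

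The 4 genes listed as p53-linked repair and nucleotide supply moved little. Rrm2b, the p53-inducible small subunit of ribonucleotide reductase that makes deoxynucleotides in resting cells, was at 45.7, 38.7, 31.98 and 31.4 CPM in WT and at 27.7, 28.7, 24.4 and 29.4 CPM in ANKO. The groups came close without overlapping, and it fell 1.34-fold (log2 fold change -0.42, SE 0.13, edgeR adjusted p = 0.0194). The call was lost with library totals (-0.24), with thinned counts (-0.27) and without ANKO3 (-0.37, edgeR adjusted p = 0.0536). Polk, a DNA polymerase that copies past damaged bases, Ddb2 and Xpc, the damage sensors of nucleotide excision repair, did not pass, with log2 fold changes of 0.22, 0.20 and 0.20 (SE 0.13, 0.16 and 0.10). Their levels were 11.8 to 15.8 CPM in WT and 14.9 to 19.2 CPM in ANKO for Polk, and 24.3 to 31.1 and 28.8 to 32.8 CPM for Xpc. Ddb2 was at 6.21 to 9.26 CPM in WT and 8.16 to 8.89 CPM in ANKO, and it overlaps Acp2 on the opposite strand. Xpc passed with library totals (0.38, edgeR adjusted p = 0.0274) and without WT1 (0.26, edgeR adjusted p = 0.0364).

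In damage signalling 5 of the 6 genes rose, beside 30.6% of all genes tested, and Chek2 did not pass. Brca1 (chromosome 11, 101488764 to 101551955, minus strand), which directs repair by homologous recombination, was at 1.83, 1.94, 0.946 and 0.751 CPM in WT and at 4.71, 5.42, 4.92 and 5.68 CPM in ANKO. It rose 3.86-fold (log2 fold change 1.95, SE 0.31, edgeR adjusted p = 0.000405). Chek1, the kinase of the replication checkpoint, was at 1.34, 1.79, 0.641 and 1.02 CPM in WT and at 2.18, 2.07, 2.74 and 2.62 CPM in ANKO, from 18 to 57 counts per ANKO library. The groups of Chek1 came close without overlapping, and it rose 2.02-fold (log2 fold change 1.01, SE 0.31, edgeR adjusted p = 0.0168). Its call was lost with thinned counts (0.94, adjusted p = 0.0678) and without WT3 and WT4 (0.59, edgeR adjusted p = 0.0982). Atm, the kinase that senses double-strand breaks, was at 45.2, 43.4, 36.7 and 35.9 CPM in WT and at 56.4, 52.6, 52.2 and 56.2 CPM in ANKO. Its groups did not overlap, and it rose 1.35-fold (log2 fold change 0.43, SE 0.10, edgeR adjusted p = 0.00359). Atr, the kinase that senses stalled replication, went from 39.7 ± 3.44 to 47.5 ± 2.33 CPM, a rise of 1.197-fold (0.26, SE 0.09, edgeR adjusted p = 0.0299). H2afx, the histone variant that these kinases phosphorylate at breaks, was at 4.51, 7.30, 5.58 and 6.67 CPM in WT and at 7.04, 8.76, 9.84 and 9.62 CPM in ANKO, with overlap. It rose from 6.02 ± 1.23 to 8.81 ± 1.27 CPM (log2 fold change 0.54, SE 0.18, edgeR adjusted p = 0.0293). Chek2, the kinase below ATM, was at 4.60 to 7.67 CPM in WT and 6.15 to 8.99 CPM in ANKO (0.28, SE 0.22).

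The calls of Atr and H2afx were each lost when any of 5 libraries was left out, and both were lost without the filter on low counts. Atr was also not called with DESeq2 (adjusted p = 0.0507), the replicate block (edgeR adjusted p = 0.0539) or thinned counts (edgeR adjusted p = 0.0548). Atr was not called without WT2, WT3, WT4, ANKO1 or ANKO2 (log2 fold changes of 0.27, 0.26, 0.19, 0.26 and 0.23, edgeR adjusted p from 0.0535 to 0.0995). H2afx was not called without WT1, WT3, ANKO2, ANKO3 or ANKO4 (0.40, 0.49, 0.53, 0.47 and 0.49, edgeR adjusted p from 0.0579 to 0.0874). With the muscle covariate none of the 5 was called, at 0.74 for Brca1, 0.14 for Chek1, 0.15 for Atm, 0.08 for Atr and 0.48 for H2afx. Brca1, Chek1 and H2afx are also transcribed more in dividing cells. The proliferation markers beside them summed to 120.3, 121.7, 138.9 and 153.5 CPM in WT3, WT4, WT1 and WT2, and to 227 to 309 CPM in ANKO. Brca1 and Chek1 were lower in WT3 and WT4 than in WT1 and WT2, while H2afx was lowest in WT1. WT3 and WT4 were also the libraries with the lowest muscle markers, and the part of dividing cells in these rises was not tested.

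Both senescence-linked genes outside the CDK inhibitors rose. Lmnb1 (chromosome 18, 56707813 to 56753424, plus strand) encodes lamin B1, which is usually lost in senescence and is abundant in dividing cells. It was at 4.16, 4.66, 2.75 and 2.14 CPM in WT and at 9.80, 11.4, 11.8 and 11.8 CPM in ANKO, a 3.29-fold rise (log2 fold change 1.72, SE 0.24, edgeR adjusted p = 0.000184). This is a level of whole tissue, in which the proliferation markers were higher too, and a loss of Lmnb1 in single cells was not tested. Glb1 encodes the lysosomal β-galactosidase that the senescence stain detects, and lysosome-rich macrophages also make it. It was at 17.7, 16.8, 12.2 and 15.5 CPM in WT and at 24.1, 23.6, 29.7 and 24.3 CPM in ANKO, a 1.64-fold rise (log2 fold change 0.71, SE 0.14, edgeR adjusted p = 0.00125). Tmppe, on the same strand, overlaps Glb1 and rose by 0.40 (edgeR adjusted p = 0.0477). With the muscle covariate Lmnb1 passed at 0.76 (edgeR adjusted p = 0.0498) and Glb1 did not (0.43, SE 0.23). Of 23 secreted factors linked to senescence 21 were tested, and 20 rose and 1 fell, with a median log2 fold change of 2.47. Over all genes tested 30.6% were higher and 27.6% lower. Igfbp4, a binding protein of insulin-like growth factors, went from 49.3 ± 2.11 to 162 ± 11.9 CPM, and Timp1, an inhibitor of matrix proteases, from 0.255 ± 0.04 to 2.97 ± 0.49 CPM. Vegfa, the angiogenic factor, was the 1 that fell, from 831 ± 74.2 to 310.0 ± 74.5 CPM. Il6 and Il1a were left untested for low counts. Many of these factors are also made by macrophages and fibroblasts, whose 18 and 8 markers were all higher in ANKO, and the part of those cells was not tested.

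Wider lists around the members showed both directions. Of 28 other p53 targets 27 were tested, and 11 rose and 7 fell, beside 30.6% and 27.6% of all genes, with a median log2 fold change of 0.35. Psrc1, a spindle protein, rose from 0.151 ± 0.06 to 3.04 ± 0.41 CPM and Ephx1, the microsomal epoxide hydrolase, from 21.1 ± 1.52 to 121 ± 33.4 CPM. Sesn2, the sestrin that also answers to the integrated stress response, fell from 59.96 ± 7.39 to 20.2 ± 2.83 CPM, opposite to Sesn1, and Ercc5, an excision repair nuclease, from 52.5 ± 5.68 to 31.1 ± 1.77 CPM. Gdf15, a secreted stress hormone that p53 and the integrated stress response both raise, had the highest log2 fold change of that list, 4.54 (SE 0.53, edgeR adjusted p = 0.000133). It was at 0.495, 0.233, 2.14 and 1.02 CPM in WT and at 19.6, 17.98, 22.98 and 35.1 CPM in ANKO. Bax, a standard p53 target in cell death, was at 12.9 to 19.96 CPM in WT and 18.6 to 22.0 CPM in ANKO and did not pass (0.33, SE 0.14, edgeR adjusted p = 0.0612). Of 36 further genes of damage sensing and repair 34 were tested, and 11 rose and 8 fell, with a median of 0.01. Clspn and Fanca, which act at replication forks and crosslinks, rose 13.7-fold and 2.78-fold from WT means of 0.239 and 1.30 CPM. Rad17, a clamp loader of the checkpoint, and Xrcc6, the Ku70 subunit of end joining, fell 1.95-fold and 3.49-fold from 48.7 and 182 CPM. Of 16 other regulators of the G1 phase 8 rose and 4 fell. Ccnd2 (cyclin D2) rose 4.65-fold and E2f1 5.27-fold, while the pocket protein genes Rb1 and Rbl2 fell 1.28-fold and 1.39-fold. With the muscle covariate 5 other p53 targets, 2 further repair genes and 2 other G1 regulators were called higher. With library totals the calls lower were 3, 4 and 1.

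Pairs of related members were also compared within a library, as the log2 ratio of their counts, which does not depend on the library size. The ratio of Bbc3 to Pmaip1, 2 genes of the same protein class, was 4.32, 3.27, 3.37 and 2.57 in WT and 1.54, 0.84, 0.87 and 1.497 in ANKO, without overlap. The mean difference of -2.20 had the smallest p that 4 against 4 libraries allow (exact two-sided permutation test, p = 0.0286) and an adjusted p of 0.114 over the 6 pairs. Cdkn1a to Cdkn1b differed by -1.75 (exact permutation p = 0.0571, adjusted p = 0.114), with a WT range of -0.56 to 1.98 and an ANKO range of -1.11 to -0.25. Chek1 to Chek2 differed by 0.79 (exact permutation p = 0.0571, adjusted p = 0.114) and Atm to Atr by 0.17 (p = 0.0857, adjusted p = 0.129). The ratio of Mdm2 to Mdm4 differed by 0.09 and that of Gadd45b to Gadd45a by 0.08 (exact permutation p = 0.571 and 0.714). No pair passed after adjustment. With 4 against 4 libraries a single pair could not pass over 6 pairs, even at the smallest possible p. The adjusted test therefore could not decide on a single pair. Gadd45b and Gadd45a had a mean ratio of -0.24 ± 0.30 in WT and -0.15 ± 0.27 in ANKO (SD, n = 4 each), although each gene rose over 7-fold.

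**Figure D4:**
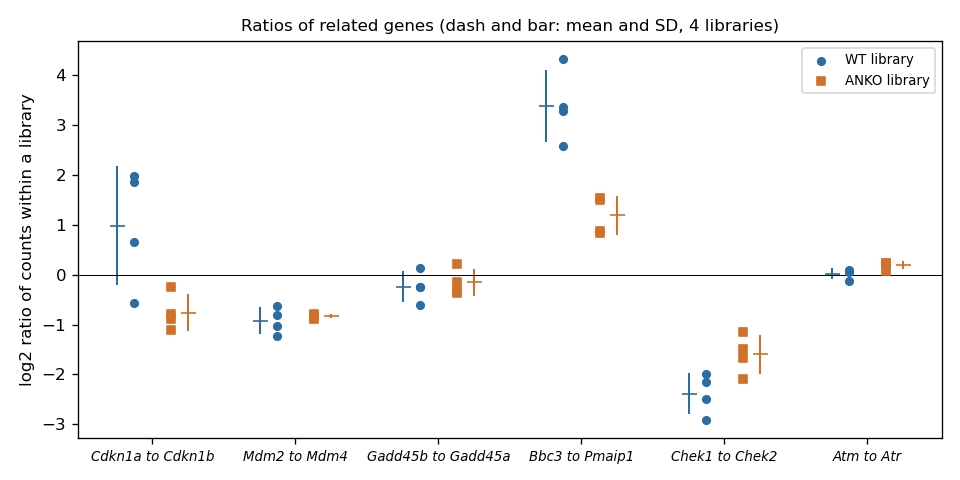
log2 ratio of the counts of 6 pairs of related members in each library, WT as circles and ANKO as squares, with the mean and SD of 4 libraries beside them. The groups did not overlap for Bbc3 to Pmaip1. No pair passed the exact permutation test after adjustment over the 6 pairs, which a single pair could not do with 4 libraries per group.

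The members that kept their call with the muscle marker level in the fit were 8 of the 20 higher and 3 of the 5 lower. Calls also fell over all genes, to 2283 higher and 1682 lower in that fit, against 5111 and 4615 without the covariate. They were Pmaip1, Zmat3, Sesn1, Eda2r, Ccnd1, Gadd45a, Gadd45b and Lmnb1 among the higher, and Cdkn2c, Ei24 and Rrm2b among the lower. Their log2 fold changes in that fit ran from 0.76 (Lmnb1) to 3.78 (Pmaip1) and from -1.78 (Cdkn2c) to -0.61 (Ei24). The other 14 called members kept their direction, and those with less than 0.2 left on the log2 scale were Cdkn1a, Phlda3, Atm, Atr and Chek1. Trp53, Plk2 and H2afx kept most of their size (0.58, 1.41 and 0.48, from 0.73, 1.54 and 0.54) with a larger error. The muscle level followed the genotype, so the covariate and the knockout are partly the same contrast, and the standard error per gene had a median of 0.292 in that fit against 0.177. Without WT3 and WT4, 16 members were higher and 5 lower, and Atr, Chek1, H2afx and Phlda3 lost their calls.

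**Figure D5:**
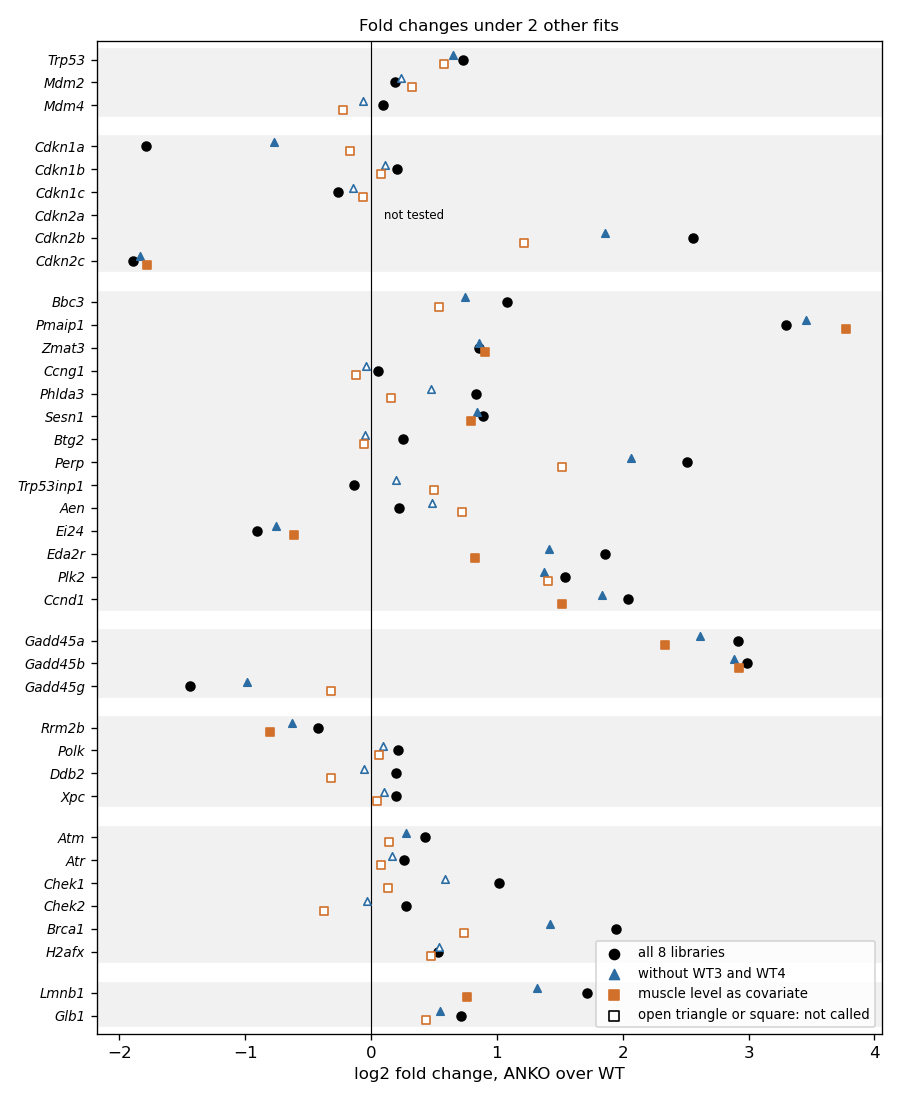
log2 fold change of each member with all 8 libraries (black), without WT3 and WT4 (triangles) and with the muscle marker level in the fit (squares), where open triangles and squares were not called. Cdkn1a moved from -1.78 to -0.77 and -0.17, while Cdkn2c stayed between -1.89 and -1.78 and Gadd45b between 2.88 and 2.99.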

How the data were processed

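Total RNA of brown fat from 4 WT and 4 ANKO mice was sequenced after rRNA depletion (Ribo-Zero Gold), per the labels' protocols. The submitters' processing notes name the aligner STAR 2.0.4b, the counter featureCounts 1.45 from Subread, and the build GRCm38. Strand setting, annotation release and treatment of multimapped reads were not given in the sources used here, so overlapping or near-identical genes may share reads. Each library has 1 deposited table, which per the file headers gives a count (whole numbers), a CPM and an RPKM for every gene. The deposited CPM equals the count per 1e+06 counts of that table, and the deposited RPKM that value per kb of gene length, both within 1e-09. Only the counts were tested. CPM and RPKM in the text were recomputed with scaled library sizes.

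Symbols came from GENCODE M21, which matched 40340 of 41388 gene IDs. The 355 rRNA rows (2.83% to 3.53% of counts in WT, 0.801% to 1.13% in ANKO) were left out. Groups came from titles and genotype labels. Genes were filtered with filterByExpr, scaled by TMM and tested with edgeR 4.0.16 (quasi-likelihood, robust, no covariate) in R 4.3.3, with Benjamini-Hochberg adjustment over 16705 genes and a threshold of 0.05. Standard errors were derived from the test statistic, and the biological coefficient of variation was 20.6%. Ratios of 6 pairs (0.5 added to each count) were compared with exact permutation tests (scipy 1.17.1) and adjusted over the 6. Floors of 3 counts cover counting error only. The test was tried on simulated data.

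The members, lists and pairs were chosen with earlier results of these data known. Named were Nampt, every member, from each other pathway list up to 2 called genes per direction with the smallest p, and from marker lists up to 2 genes by level, of which Ucp1, Myh4, Acta1 and Lpl are printed. Gdf15, Bax, Il6, Il1a and genes overlapping members were named after their values were seen. Alternatives were other scaling (RLE, upper quartile, totals), other filters, DESeq2 1.42.0, limma-voom (limma 3.58.1), the replicate number as a block, thinned counts, protein-coding nuclear genes, the mean log2 CPM of the muscle markers as a covariate, a threshold of 0.01, 1 added count for ratios and each library left out. Leaving out WT3 and WT4 together, and the alternatives for genes outside the members, were chosen after seeing the data.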

Additional observations from a re-analysis of the deposited data

Results flagged for a closer look

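Among groups of 4 libraries, 9 had 1 library far from the other 3, where the gap to the nearest exceeded Dixon's 95% critical value, and chance gives about 1 in 20. Nampt was at 571 CPM in WT3. Bbc3 was at 7.38 CPM in WT1. Sesn1 was at 26.6 CPM in ANKO2. Btg2 was at 100.5 CPM in ANKO1. Perp was at 12.7 CPM in ANKO4. Trp53inp1 was at 145.5 CPM in WT3. Ddb2 was at 8.16 CPM in ANKO4. Glb1 was at 29.7 CPM in ANKO3. The log2 ratio of Atm to Atr was 0.0779 in ANKO2. These were 9 of the 90 groups checked.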

How the results depend on the processing

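No called member changed sign under any alternative run. Members called higher were 16 to 23 and lower 4 or 5, except with the muscle covariate (8 and 3) and at a threshold of 0.01 (3 lower). Over all genes the muscle covariate gave 2283 higher and 1682 lower, and library totals 2940 lower. Leaving out each library gave 4780 to 5555 genes higher and 4098 to 4912 lower, and 17 to 21 members higher and 4 to 5 lower.

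The members that reversed were not called in any fit. Under the muscle covariate Mdm4 was at -0.221, Ccng1 at -0.123, Btg2 at -0.0568, Trp53inp1 at 0.505, Ddb2 at -0.321 and Chek2 at -0.369 on the log2 scale. Without WT3 and WT4 they were at -0.0669, -0.0417, -0.0507, 0.200, -0.0585 and -0.0304 in the same order. With 1 library left out Btg2 ran from -0.0867 (ANKO1) to 0.654 (WT1) and Trp53inp1 from -0.270 (WT2) to 0.162 (WT3), and library totals put Trp53inp1 at 0.0619. Of the marker genes, Myh4, Acta1 and Lpl went to -0.382, -0.234 and 0.0304 with the muscle covariate, from 3.57, 3.83 and -0.90, and Myh4 and Acta1 are in that covariate. The cause of the other reversals was not tested.

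Ratio differences over the leave-one-out fits ran from -2.26 to -1.41 (Cdkn1a to Cdkn1b), -0.0115 (without WT1) to 0.19 (Mdm2 to Mdm4), -0.0405 (without ANKO4, and below 0 without WT2 too) to 0.21 (Gadd45b to Gadd45a), -2.47 to -1.88 (Bbc3 to Pmaip1), 0.62 to 0.96 (Chek1 to Chek2) and 0.12 to 0.21 (Atm to Atr). With 3 against 4 libraries no exact p below 0.0571 was possible.

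After the group mean of each gene was subtracted, same-numbered WT and ANKO libraries correlated at 0.11, -0.01, 0.07 and -0.05. Libraries with different numbers correlated at -0.127 to 0.124, so over all genes tested these values gave no sign that the numbers pair the mice. With the replicate block 4961 genes were higher and 4278 lower, and 19 members were higher and 5 lower. For the ratios the block leaves the differences as they are by construction (-1.75, 0.09, 0.08, -2.20, 0.79 and 0.17), and sign flips over 4 number pairs allow no p below 0.125, so it tests nothing there. Depth limits the low genes Cdkn2a, Pmaip1 and Chek1.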
